A study of Mus musculus with 16 samples.

Results

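The Ms4a genes encode small membrane proteins that cross the membrane repeatedly, and the genes lie beside each other on mouse chromosome 19. The 8 genes described here, Ms4a1, Ms4a4a, Ms4a4b, Ms4a4c, Ms4a6b, Ms4a6c, Ms4a6d and Ms4a7, were taken by name from the 31053 features measured in each library. All 8 had a row in all 16 libraries. Family members often act as partners of immune receptors. Ms4a1 encodes CD20, the surface marker of B cells, and the other members are known mainly from T cells, monocytes and macrophages.

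The data were single-cell RNA counts of live CD45+ cells, the leukocytes, sorted from tumors grown under the skin of the right flank of C57BL/6J mice. MC38 is a mouse colon adenocarcinoma line, and Panc02-SIY is a mouse pancreatic adenocarcinoma line that carries the SIY model antigen. Tumors were left untreated (NT) or received a single dose of 12 Gy of CT-guided radiation (RT) and were harvested 24 hours later, which gave the groups MC38 NT, MC38 RT, Panc02-SIY NT and Panc02-SIY RT with 4 libraries each. The mice of all 4 groups were of this strain and carried no other genetic change named in the labels, and each tumor model was 1 transplanted line. The series text gives 4 animals per group and the study's methods give 3, so p-values here measure the spread between these libraries. No batch was named in the labels, so tumor line and processing cannot be told apart.

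The 16 libraries held 28678 barcodes and between 3240877 and 43776342 UMIs (unique molecular identifiers, 1 per captured RNA molecule). The 8 MC38 libraries listed 9843 barcodes of which only 2632 were distinct, and the overlap between 2 of them had a median of 964.5 barcodes, 83.3% of the smaller library. Between 2 Panc02-SIY libraries it was 82 barcodes, or 5.54%. Each barcode was therefore counted only in the library of its tumor where it had most UMIs, which left 2632 MC38 and 18136 Panc02-SIY barcodes. This kept 70.9% to 86.4% of the UMIs of MC38 NT libraries, 42.8% to 84.0% in MC38 RT and 99.0% to 99.8% in Panc02-SIY. The lowest was MC38 RT replicate 1, with 147 of 1286 barcodes and 1385711 UMIs kept. Of the 20768 kept barcodes, 86.6% took a class from detected marker genes, and no Ms4a gene was used as a marker. Of 8 listed p53 target genes, which irradiated cells are known to raise, 8 were higher in MC38 RT and 7 in Panc02-SIY RT macrophage-like barcodes than in the untreated ones. Of all genes, 4.63% and 1.81% were higher there. Across all T barcodes 5 and 8 of the 8 were higher (0.358% and 4.35% of all genes changed), and in NK-like barcodes 5 and 5 (0.141% and 0.404%). In monocyte-like barcodes of MC38 and Panc02-SIY and cDC-like barcodes of Panc02-SIY, 0 of 7 tested were higher (0%, 0.101% and 0.939% changed).

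The 8 genes span 355 kb of chromosome 19 (GRCm38 positions 11249675 to 11604849), with 5 on the plus and 3 on the minus strand. From the lowest coordinate, Ms4a1 lies at chr19:11249675-11266241 and Ms4a7 at chr19:11321039-11336146. They are followed by Ms4a4a at chr19:11375523-11392790, Ms4a4c at chr19:11404770-11427246 and Ms4a4b at chr19:11443553-11467055. Next are Ms4a6c at chr19:11469366-11482192, Ms4a6b at chr19:11516512-11531256 and Ms4a6d at chr19:11586604-11604849. Neighbors in this row differed in the cells that used them: Ms4a4b was read mainly in T and NK cells, while Ms4a4c and Ms4a6c on its flanks were read mainly in monocytes and macrophages. The promoters of these 3 genes are shown because the genes are adjacent and their class patterns differ. The windows hold up to 250 bases before the RefSeq transcript start and stop where a GENCODE gene begins, except that the Ms4a4c start lies inside its longer GENCODE gene. They were read from the plus strand of GRCm38.p6 as chr19:11407411-11407660 for Ms4a4c, chr19:11443308-11443552 for Ms4a4b and chr19:11469118-11469365 for Ms4a6c, and carry the letters GGAAGT, the core that ETS family factors are known to bind, in capitals.
Ms4a4c: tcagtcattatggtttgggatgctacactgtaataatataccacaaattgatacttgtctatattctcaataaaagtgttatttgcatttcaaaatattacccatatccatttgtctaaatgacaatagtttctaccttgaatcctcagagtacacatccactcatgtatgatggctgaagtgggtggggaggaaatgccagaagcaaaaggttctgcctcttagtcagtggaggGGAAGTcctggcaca
Ms4a4b: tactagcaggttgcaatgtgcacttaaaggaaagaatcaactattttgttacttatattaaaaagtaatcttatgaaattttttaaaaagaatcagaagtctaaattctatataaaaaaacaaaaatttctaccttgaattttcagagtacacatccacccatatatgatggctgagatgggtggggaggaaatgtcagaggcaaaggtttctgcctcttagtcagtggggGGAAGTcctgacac
Ms4a6c: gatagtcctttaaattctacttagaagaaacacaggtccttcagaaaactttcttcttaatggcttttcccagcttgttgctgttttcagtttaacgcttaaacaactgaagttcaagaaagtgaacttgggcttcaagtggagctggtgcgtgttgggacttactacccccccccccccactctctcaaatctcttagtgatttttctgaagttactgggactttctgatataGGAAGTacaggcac

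The Ms4a4b and Ms4a4c windows were 80.4% identical over 225 aligned bases. The Ms4a6b and Ms4a6c windows were 88.3% identical over 171 aligned bases. GGAAGT, on either strand, was present in 5 of the 7 member windows in the RefSeq table (1 each of Ms4a4b, Ms4a4c, Ms4a6b, Ms4a6c and Ms4a7) and in 23.8% of the 32851 promoter windows in the table, each of 300 bases that run from 250 before to 50 after a start. In the windows of Ms4a4c, Ms4a6c and Ms4a4b it began at positions -15, -16 and -19 from the start. Ms4a1 and Ms4a6d had no entry. The letters TTCNNNGAA, also on either strand, were in 0 of 7 member windows, against 8.30% of all windows. Near their transcript ends, where 3′ libraries are read, 7.94% of the 60-base windows of Ms4a4c and 3.08% of those of Ms4a4b also occurred in another Ms4a gene. The share was 4.20% for Ms4a6c, 1.42% for Ms4a6b and 0 for the other 4, so a small part of the counts of Ms4a4b, Ms4a4c, Ms4a6b and Ms4a6c may not be uniquely assignable.

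The first question was which leukocytes carried each gene. Levels are given as CPM, the UMIs of the gene per 1000000 UMIs of the class in a library, as mean ± SD over libraries with at least 10 barcodes of the class. Levels are compared between classes within a gene and not between genes. Folds of a class against all other classed barcodes of the same libraries came from edgeR's quasi-likelihood test, and a gene was called when its adjusted p was below 0.1 and it changed by more than 1.3-fold. The other barcodes leave out the class itself. The largest class was macrophage-like in MC38 (1447 barcodes) and CD8 T-like in Panc02-SIY (5600 barcodes), so the same fold has a different reference in each tumor.

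**Figure D1:**
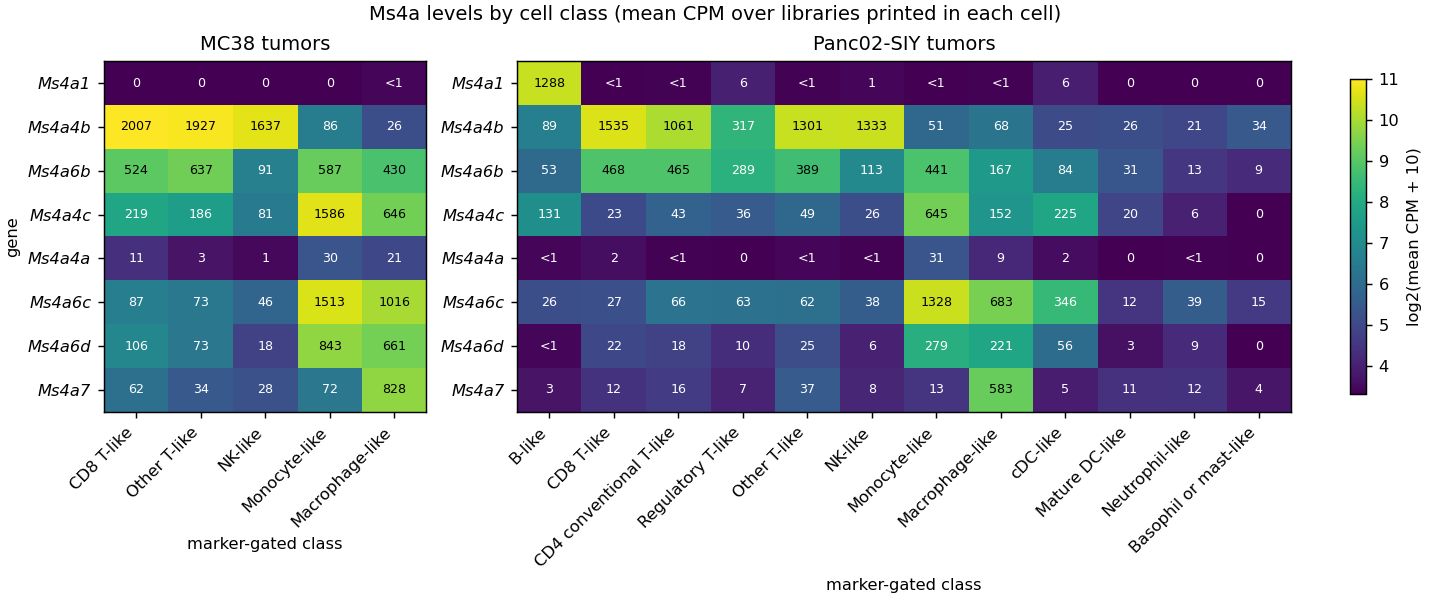
Mean CPM of the 8 Ms4a genes (rows) in each marker-gated class (columns) of MC38 and Panc02-SIY tumors, with NT and RT libraries together and the color scale on log2(CPM + 10). Ms4a1 is seen in B-like barcodes, Ms4a4b in T-like and NK-like barcodes, Ms4a7 in macrophage-like barcodes, and Ms4a4c, Ms4a6c and Ms4a6d in monocyte-like and macrophage-like barcodes.

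Ms4a1 was the B cell member. In Panc02-SIY tumors its level in B-like barcodes was 1042, 1436 and 943 CPM in the 3 NT libraries with enough B cells and 1256, 1868, 1153 and 1318 CPM in the 4 RT libraries. The next classes, regulatory T-like and cDC-like, averaged 5.93 and 5.71 CPM. Its fold over the other classes was 11.20 on the log2 scale (SE 0.48, edgeR quasi-likelihood adjusted p = 1.12e-07). In B-like barcodes 1 of the 8 members was higher than in the other barcodes, where 10.5% of all genes tested were higher. MC38 tumors held only 13 B-like barcodes, too few for a level, and 47 Ms4a1 UMIs in all against 1082 in Panc02-SIY.

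After each barcode was thinned to 1000 UMIs, a Ms4a1 UMI was found in 59.9% ± 6.86 (SD, n = 3 libraries) of B-like barcodes of Panc02-SIY NT and 71.1% ± 2.52 (n = 4) of Panc02-SIY RT. Before thinning the shares of the same barcodes, each with at least 1000 UMIs, were 96.1% and 91.0%. The median over all kept B-like barcodes, shallower ones included, was 3826 and 3306.5 UMIs. Medians beside later shares were likewise taken over all kept barcodes of the class. In CD8 T-like barcodes, which should lack CD20, the thinned shares were 0% and 0.0438% and the unthinned shares 0.219% and 0.0825%, at medians of 8476 and 6420 UMIs.

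Ms4a4b was the T and NK cell member, and its protein is known as a partner of the receptor GITR in T cells. In Panc02-SIY tumors it averaged 1535 ± 268 CPM in CD8 T-like, 1333 ± 119 in NK-like, 1301 ± 176 in other T-like and 1061 ± 278 in CD4 conventional T-like barcodes (SD, n = 8 libraries). CD8 T-like barcodes were above NK-like barcodes in all 8 libraries, by 0.19 ± 0.19 on the log2(CPM + 10) scale (exact sign-flip p = 0.00781, the smallest that 8 libraries allow, and 0.0929 after adjustment over 107 neighboring pairs). In MC38 tumors the level was 2007 ± 582 CPM in CD8 T-like (n = 5), 1927 ± 422 in other T-like (n = 3) and 1637 ± 538 in NK-like barcodes (n = 7). Neighbors in this order shared only 2 MC38 libraries, so their order was not tested. In the 5 libraries that held both, CD8 T-like barcodes were above NK-like barcodes in 3.

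Regulatory T-like barcodes stood apart among T cells. In Panc02-SIY they held 429, 98.2 and 412 CPM of Ms4a4b in NT and 855, 115, 233 and 76.9 CPM in RT, a mean of 317 ± 278. That was below the CD4 conventional T-like level of the same library in 7 of 7 libraries, by a mean of 2.10 ± 1.20 on the log2 scale (exact sign-flip p = 0.0156, adjusted 0.0983). The libraries within each group differed widely, and the class held 9 to 55 barcodes per library.

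Ms4a4b was higher in CD8 T-like barcodes than in all other barcodes by 4.01 (SE 0.33) on the log2 scale in MC38 and 1.66 (SE 0.13) in Panc02-SIY, with adjusted p = 1.72e-05 and 1.73e-06 by edgeR's quasi-likelihood test. In NK-like barcodes the difference was 3.62 and 0.61. Among CD8 T-like barcodes 1 of 7 members tested was higher in MC38 and 2 of 8 in Panc02-SIY, where 14.9% and 24.4% of all genes were. Among NK-like barcodes it was 1 of 7 and 1 of 8, against 16.4% and 18.9%. A thinned UMI of Ms4a4b was found in 72.0% ± 2.56 of CD8 T-like barcodes of Panc02-SIY NT and in 2.00% ± 0.820 of neutrophil-like barcodes, which should lack it (unthinned 98.5% and 4.85%, median 8476 and 2552 UMIs).

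Ms4a6b had the broadest use. In Panc02-SIY it averaged 468 ± 74.4 CPM in CD8 T-like, 465 ± 79.8 in CD4 conventional T-like, 441 ± 66.7 in monocyte-like and 389 ± 62.1 in other T-like barcodes, and none of these neighbors was told apart by the exact sign-flip test (adjusted p from 0.139 to 1). Regulatory T-like barcodes with 289 ± 112 CPM were above macrophage-like barcodes with 167 ± 49.8 CPM in 7 of 7 libraries (exact sign-flip p = 0.0156, adjusted 0.0983). NK-like barcodes held only 113 ± 20.3 CPM. NK-like and CD8 T-like barcodes, which both carried Ms4a4b, were called in opposite directions for Ms4a6b: against the other barcodes it differed by -1.61 in NK-like and by 1.26 in CD8 T-like barcodes on the log2 scale (adjusted p = 1.76e-07 and 1.05e-09, edgeR quasi-likelihood test).

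In MC38 tumors Ms4a6b reached 637 ± 60.7 CPM in other T-like, 587 ± 61.0 in monocyte-like, 524 ± 180 in CD8 T-like and 430 ± 54.2 in macrophage-like barcodes. NK-like barcodes with 91.1 ± 35.8 CPM were below macrophage-like barcodes in 7 of 7 libraries (exact sign-flip p = 0.0156, adjusted 0.0983). After thinning, a Ms4a6b UMI was found in 38.3% ± 5.73 of CD8 T-like, 10.4% ± 1.07 of NK-like and 1.06% ± 0.775 of neutrophil-like barcodes of Panc02-SIY NT. The unthinned shares were 92.1%, 40.5% and 3.34%, at medians of 8476, 5418 and 2552 UMIs.

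Ms4a4c, Ms4a6c and Ms4a6d were the shared monocyte and macrophage members. Ms4a4c averaged 1586 ± 450 CPM in monocyte-like and 646 ± 160 CPM in macrophage-like barcodes of MC38. In Panc02-SIY it averaged 645 ± 139 CPM in monocyte-like, 225 ± 182 in cDC-like, 152 ± 49.8 in macrophage-like and 131 ± 56.1 in B-like barcodes. Monocyte-like barcodes were above macrophage-like barcodes in 7 of 7 MC38 libraries and above cDC-like barcodes in 8 of 8 Panc02-SIY libraries (exact sign-flip p = 0.0156 and 0.00781, adjusted 0.0983 and 0.0929). The cDC-like and macrophage-like levels of Panc02-SIY were not told apart (higher in cDC-like barcodes in 5 of 8 libraries, adjusted p = 0.836, exact sign-flip test).

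Ms4a6c was also highest in monocyte-like barcodes, but in Panc02-SIY its macrophage-like level was above its cDC-like level. It averaged 1513 ± 167 CPM in monocyte-like and 1016 ± 139 CPM in macrophage-like barcodes of MC38, and 1328 ± 114, 683 ± 97.8 and 346 ± 195 CPM in monocyte-like, macrophage-like and cDC-like barcodes of Panc02-SIY. Each step was in the same direction in all libraries that held both classes, 7 in MC38 and 8 in Panc02-SIY (adjusted p = 0.0983 and 0.0929, exact sign-flip test). The monocyte to macrophage step was 0.55 ± 0.17 in MC38 and 0.96 ± 0.16 in Panc02-SIY on the log2(CPM + 10) scale. Among lymphoid classes of Panc02-SIY it averaged 25.8 to 66.5 CPM.

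Ms4a6d averaged 843 ± 246 CPM in monocyte-like and 661 ± 171 CPM in macrophage-like barcodes of MC38, and 279 ± 106 and 221 ± 35.6 CPM in those of Panc02-SIY. The classes were not told apart in either tumor (adjusted p = 0.572 and 0.789, exact sign-flip test). In Panc02-SIY the step from macrophage-like to cDC-like barcodes, with 55.9 ± 61.4 CPM, was 2.31 ± 1.12 on the log2 scale and present in 8 of 8 libraries (exact sign-flip p = 0.00781, adjusted 0.0929).

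In monocyte-like barcodes, 4 of 7 members tested were higher than in the other barcodes of MC38 (Ms4a4c, Ms4a6b, Ms4a6c and Ms4a6d) and 5 of 8 in Panc02-SIY, where Ms4a4a was added. The background was 14.2% and 21.7% of all genes. The folds in Panc02-SIY were 3.64 for Ms4a4c, 3.60 for Ms4a4a, 3.1 for Ms4a6c, 2.40 for Ms4a6d and 0.65 for Ms4a6b on the log2 scale.

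Ms4a7 separated macrophages from monocytes, and was the only member called higher in macrophage-like and lower in monocyte-like barcodes in both tumors. It averaged 828 ± 171 CPM in macrophage-like and 72.2 ± 42.3 CPM in monocyte-like barcodes of MC38, a step of 3.54 ± 0.69 on the log2(CPM + 10) scale in 7 of 7 libraries (exact sign-flip p = 0.0156, adjusted 0.0983). In Panc02-SIY the levels were 583 ± 136 and 12.5 ± 7.76 CPM. The next class after macrophage-like barcodes was other T-like with 36.6 ± 29.2 CPM, below in 8 of 8 libraries (exact sign-flip p = 0.00781, adjusted 0.0929). Its fold in macrophage-like against all other barcodes was 4.23 (SE 0.14) in MC38 and 5.56 (SE 0.24) in Panc02-SIY (adjusted p = 4.15e-13 and 3.01e-08, edgeR quasi-likelihood test). After thinning, a Ms4a7 UMI was found in 35.8% ± 2.84 of macrophage-like and 0.379% ± 0.454 of neutrophil-like barcodes of Panc02-SIY NT (unthinned 63.7% and 2.27%, medians 2238.5 and 2552 UMIs).

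Ms4a4a, whose protein is known from macrophages as a partner of the receptor Dectin-1, was the least abundant myeloid member, with 1174 UMIs in all. It averaged 30.3 ± 25.2 CPM in monocyte-like and 21.4 ± 7.15 in macrophage-like barcodes of MC38. In Panc02-SIY the same classes held 30.7 ± 9.27 and 8.57 ± 6.56 CPM, with monocyte-like above macrophage-like barcodes in 8 of 8 libraries (exact sign-flip p = 0.00781, adjusted 0.0929). In macrophage-like barcodes, 4 of 7 members were higher than in the other barcodes of MC38 and 5 of 8 in Panc02-SIY, against 22% and 26.7% of all genes.

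Neighboring classes were compared for all members in both tumors, which gave 107 pairs, and 17 of them, 5 of 19 in MC38 and 12 of 88 in Panc02-SIY, passed an adjusted p of 0.1. Pairs that shared 6 or fewer libraries could not pass: with 6 the smallest exact sign-flip p is 0.03125, which adjusted to 0.159. Ms4a1 in B-like against regulatory T-like barcodes was such a pair (1288 and 5.93 CPM, higher in 6 of 6 libraries). Pairs at 0 CPM in both classes were counted too. The 17 is therefore no count of how many classes differ. In neutrophil-like and mature DC-like barcodes of Panc02-SIY, all 8 members were below the other barcodes, where 49.9% and 31.5% of all genes were lower. Against the unweighted mean of the other classes, only 2 and 3 of the 8 were called lower by edgeR, where 29.9% and 20% of all genes were. Single lymphoid classes were not always higher: Ms4a6c averaged 38.5 CPM in neutrophil-like, 37.7 in NK-like and 26.5 in CD8 T-like barcodes. Markers that had not been used to set a class were highest in that class in every class tested but 1, since the cDC markers averaged 18630 CPM in mature DC-like and 18226.5 CPM in cDC-like barcodes. Such monocyte markers averaged 11448 CPM in monocyte-like and 8810 CPM in macrophage-like barcodes of MC38, against 11467 and 2985 CPM in Panc02-SIY. B, neutrophil, basophil or mast, cDC and mature DC classes of MC38 were too small to check.

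The genes whose class pattern came closest to each member were taken over 29 class-by-group means of log2(CPM + 10), which share libraries, so the correlations are a description. Ms4a1 was closest to the B cell genes Ly6d, Pou2af1 and Fcrla (r = 0.993, 0.991 and 0.990). Ms4a4b was closest to Fasl, which encodes the ligand of Fas, then Sh2d2a and Cd96 (r = 0.959, 0.954 and 0.953). Ms4a7 was closest to Olfml3, Slamf9 and Pf4 (r = 0.938, 0.929 and 0.925). Ms4a6d was closest to Msr1, a scavenger receptor, and had Ms4a6c as its second closest gene (r = 0.949 and 0.933). Ms4a6c was closest to Tifab, Ms4a4a to Msr1, Ms4a4c to Tpst1 and Ms4a6b to Ifi206 (r = 0.961, 0.918, 0.889 and 0.877). Ifi211 for Ms4a4c and Ifi213 for Ms4a6b, which like Ifi206 belong to the interferon-inducible p200 family, were also among the 3 closest (r = 0.880 and 0.811).

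Among relatives outside the 8 genes, Ms4a2, the beta chain of the high-affinity IgE receptor, was higher in basophil or mast-like barcodes of Panc02-SIY by 12.18 on the log2 scale. Ms4a14 followed Ms4a7, with folds of 3.91 in MC38 and 5.73 in Panc02-SIY macrophage-like barcodes. Ms4a8a was a monocyte gene, with 1.56 and 5.31 in monocyte-like barcodes. These folds had an adjusted p below 0.1 by edgeR's quasi-likelihood test.

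The second question was what changed 24 hours after 12 Gy. Ms4a4c, Ms4a6c and Ms4a6d were higher in macrophage-like barcodes of MC38 RT than of MC38 NT, and Ms4a4c and Ms4a6d in those of Panc02-SIY RT than of Panc02-SIY NT. Monocyte marker genes were also higher in the same barcodes of MC38 RT. In Panc02-SIY their median was higher in RT, but the NT and RT libraries overlapped. None of these Ms4a calls held when barcodes with several monocyte markers were left out. The differences then fell to between -0.21 and 0.17 on the log2 scale in MC38, while in Panc02-SIY they were still 0.40 and 0.35. Ms4a7, the macrophage member, was not called in either tumor.

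**Figure D2:**
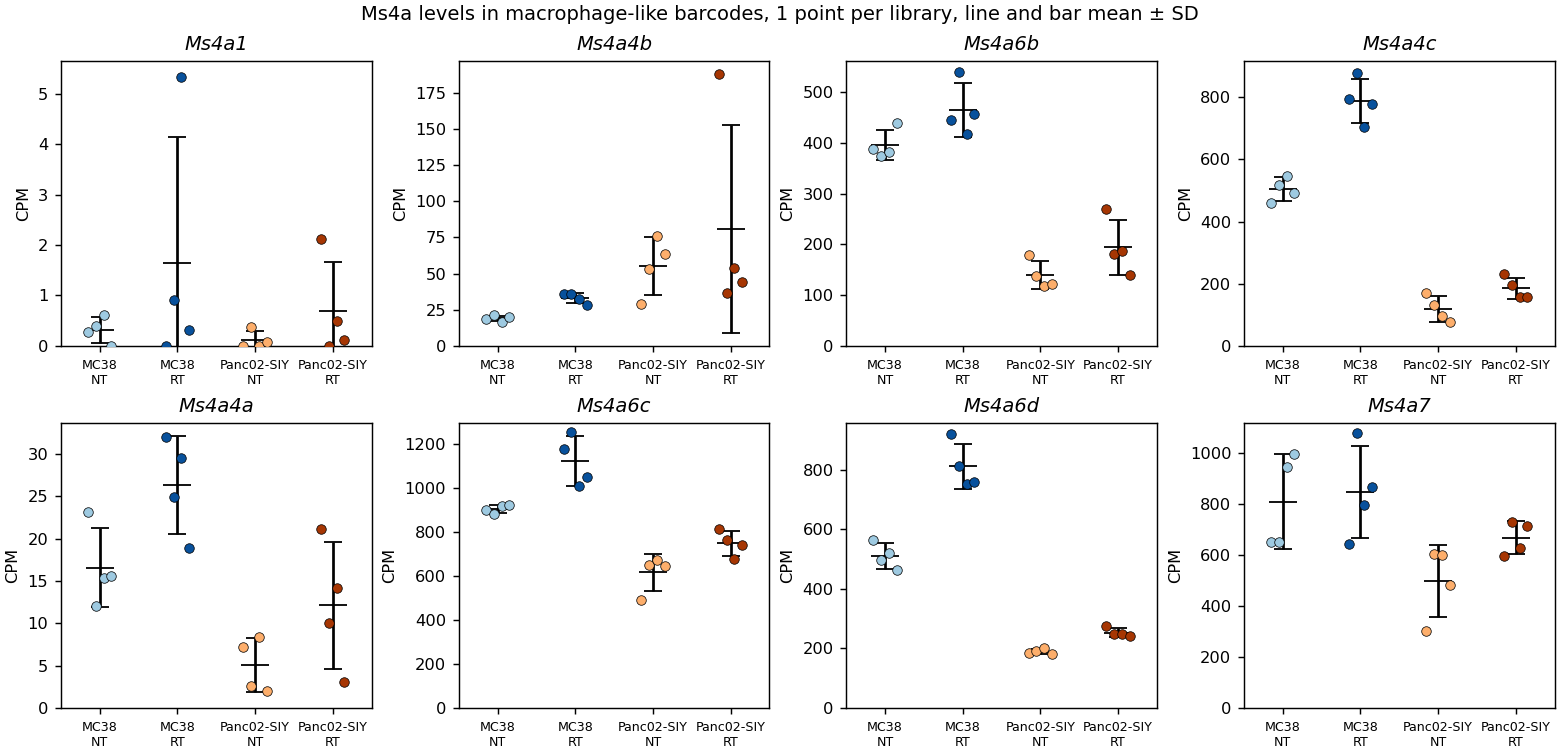
CPM of the 8 Ms4a genes in macrophage-like barcodes, 1 point per library in the 4 groups, with the mean ± SD as a line and bar and each axis starting at 0. Ms4a4c and Ms4a6d of MC38 RT sit at 703 to 876 and 754 to 919 CPM, above all MC38 NT libraries, and both tumors' Ms4a7 points overlap between NT and RT.

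Ms4a6d in MC38 macrophage-like barcodes was 563, 496, 519 and 463 CPM in NT and 919, 812, 754 and 759 CPM in RT. Every RT library was above every NT library. The difference was 0.75 on the log2 scale (SE 0.09, edgeR quasi-likelihood adjusted p = 2.57e-05). Ms4a4c was 459, 518, 548 and 493 CPM in NT and 794, 876, 703 and 777 CPM in RT, also without overlap, a difference of 0.73 (SE 0.17, adjusted p = 0.0109). Ms4a6c was 901, 885, 918 and 924 CPM in NT and 1179, 1258, 1012 and 1052 CPM in RT, a difference of 0.40 (SE 0.11, adjusted p = 0.0238). The Ms4a6c call ended without MC38 RT replicate 2 (0.35, fold change under 1.3) and with all deposited barcodes (0.28, adjusted p = 0.123).

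These 3 calls were 3 of 7 members tested in MC38 macrophage-like barcodes, where 4.63% of all genes were higher and 9.57% changed in either direction. Of the members that were not called, Ms4a4b was 16.8 to 21.0 CPM in NT and 27.9 to 36.1 CPM in RT, without overlap but with an adjusted p of 0.255 by edgeR. Ms4a4a and Ms4a6b differed by 0.70 and 0.32 (adjusted p = 0.309 and 0.218), and their libraries overlapped. Ms4a7 was 650, 650, 945 and 995 CPM in NT and 643, 1079, 796 and 868 CPM in RT, a difference of 0.15 (SE 0.21, adjusted p = 0.778).

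Ms4a6d in Panc02-SIY macrophage-like barcodes was 184, 192, 201 and 181 CPM in NT and 275, 247, 248 and 240 CPM in RT, again without overlap. The difference was 0.41 on the log2 scale (SE 0.10, edgeR quasi-likelihood adjusted p = 0.0319). Ms4a4c was 170, 131, 95.9 and 77.9 CPM in NT and 230, 195, 158 and 156 CPM in RT. These ranges overlapped, and the difference was 0.68 (SE 0.18, adjusted p = 0.0606). The Ms4a4c call ended without Panc02-SIY NT replicate 3 or 4 or RT replicate 1 or 2, with adjusted p between 0.126 and 0.236, and the Ms4a6d call ended without NT replicate 4 (adjusted p = 0.121) or RT replicate 1 (fold change under 1.3). A filter on barcodes with few genes or a high mitochondrial share also ended both (adjusted p = 0.125 for Ms4a4c, fold change under 1.3 for Ms4a6d).

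The Panc02-SIY calls were 2 of 7 members, where 1.81% of all genes were higher and 3.23% changed in either direction. Ms4a6c did not overlap, with 491 to 676 CPM in NT and 678 to 816 CPM in RT, but its difference of 0.27 had an adjusted p of 0.212. Ms4a6b, Ms4a7 and Ms4a4a differed by 0.47, 0.41 and 1.40 (adjusted p = 0.137, 0.412 and 0.279), and DESeq2 called Ms4a6b and Ms4a4a as well (adjusted p = 0.0999 and 0.0964). The difference between the tumors in the response to RT was called for 0 of 7 members in macrophage-like barcodes, where 0% of all genes were called by edgeR and 626 had an unadjusted p below 0.05. For Ms4a6d it was 0.34 (unadjusted p = 0.0162, adjusted p = 0.936).

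Monocyte genes moved with these increases in MC38, and less clearly in Panc02-SIY, where NT and RT libraries overlapped. The summed level of the 8 genes that gated monocytes, measured in macrophage-like barcodes, ranged from 1259 to 1666 CPM in MC38 NT and from 2025 to 2294 CPM in MC38 RT. In Panc02-SIY it was 172 to 1378 CPM in NT, with a median of 298, and 460 to 1222 CPM in RT, with a median of 924. When macrophage-like barcodes with more than 1 detected monocyte marker were left out, 288 of 795 barcodes remained in MC38 NT, 168 of 652 in MC38 RT, 1991 of 2114 in Panc02-SIY NT and 1144 of 1327 in Panc02-SIY RT. The MC38 differences were then 0.17 for Ms4a4c, -0.21 for Ms4a6c and -0.09 for Ms4a6d (adjusted p = 0.75, 0.579 and 0.891). The Panc02-SIY differences were 0.40 for Ms4a4c and 0.35 for Ms4a6d (adjusted p = 0.45 and 0.54).

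A stricter selection, with at most 1 detected marker of every other class, gave 0.37, -0.34 and -0.47 for Ms4a4c, Ms4a6c and Ms4a6d in MC38 (edgeR adjusted p = 0.748, 0.734 and 0.677) and 0.19 and 0.16 for Ms4a4c and Ms4a6d in Panc02-SIY (adjusted p = 0.937 and 0.943). Both selections also removed deeply read barcodes: the median per barcode fell from 21683 to 4730.5 UMIs in MC38 NT and from 18909 to 1784 UMIs in MC38 RT under the first. With only barcodes of at least 5000 UMIs, the differences kept their size, 0.76, 0.43 and 0.79 for Ms4a4c, Ms4a6c and Ms4a6d in MC38 (adjusted p = 0.0169, 0.0432 and 3.57e-05) and 0.72 and 0.40 for Ms4a4c and Ms4a6d in Panc02-SIY (adjusted p = 0.0997 and 0.0723). The part of monocyte markers and of depth in these results cannot be told apart here.

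In monocyte-like barcodes themselves 0 of 7 members were called in either tumor, where 0% of all genes were called in MC38 and 0.101% in Panc02-SIY by edgeR, and 517 and 693 genes had an unadjusted p below 0.05. DESeq2 also called 0 members. Ms4a6d of Panc02-SIY was 68.6, 269, 255 and 263 CPM in NT and 345, 304, 282 and 448 CPM in RT. The groups did not overlap, but the difference of 0.59 had an adjusted p of 0.762. Ms4a4c of MC38 was 1368, 1709 and 1231 CPM in the 3 NT libraries with enough monocytes and 1099, 2470, 1557 and 1668 CPM in RT, a difference of 0.30 (adjusted p = 0.922). MC38 NT and RT held 73 and 128 monocyte-like barcodes, of which 9 in NT replicate 1 were too few to enter the fit.

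**Figure D3:**
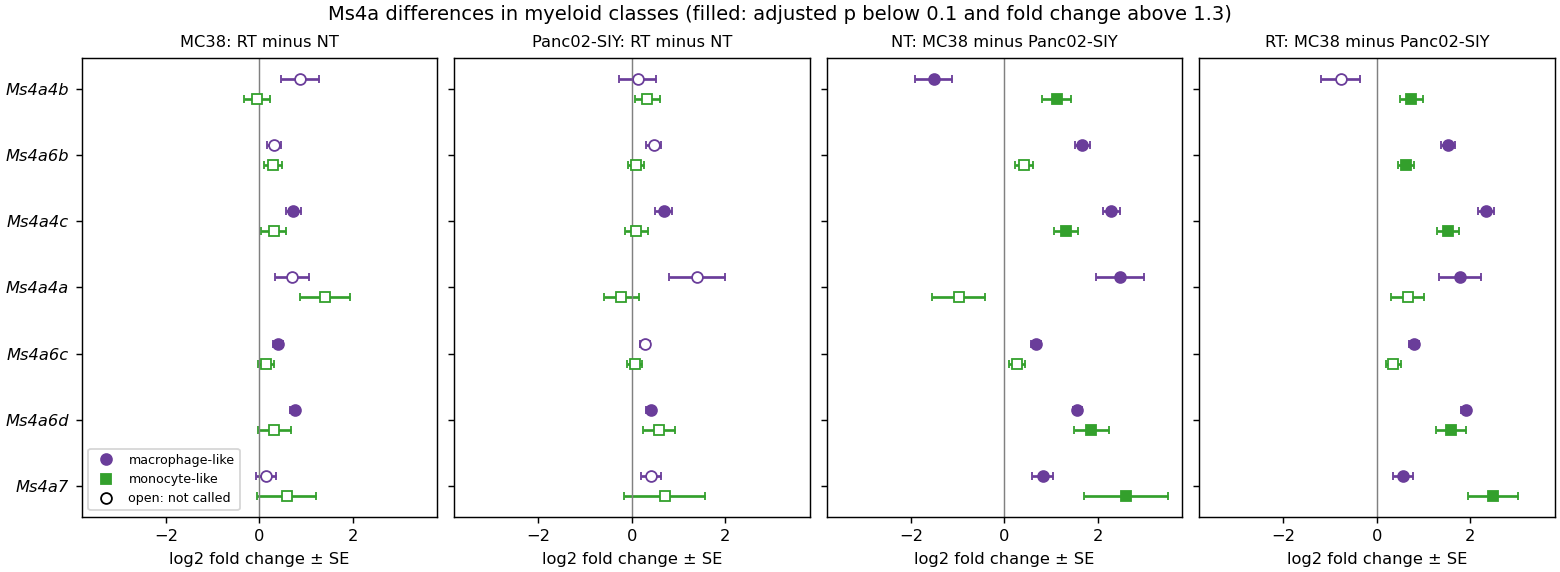
Log2 fold changes from edgeR's quasi-likelihood fit for 7 Ms4a genes in macrophage-like (circles) and monocyte-like (squares) barcodes. Bars are ± SE, derived from the F statistic, and filled points are differences past both thresholds. RT minus NT is called only in macrophage-like barcodes, while MC38 minus Panc02-SIY is called for Ms4a4c, Ms4a6d and Ms4a7 in both classes, in NT and in RT.

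In cDC-like barcodes of Panc02-SIY, Ms4a6d was 33.4, 4.08, 13.3 and 8.54 CPM in NT and 187, 91.0, 73.3 and 36.3 CPM in RT. The groups did not overlap, although the highest NT and the lowest RT library were close. The class held 15 to 59 barcodes per NT library and 15 to 50 per RT library, so the NT levels rest on few UMIs. The difference was 2.87 on the log2 scale (SE 0.54, edgeR quasi-likelihood adjusted p = 0.0298), and it was 1 of 5 members tested, where 0.799% of all genes were higher and 0.939% changed. The call ended without NT replicate 2 or 4 or RT replicate 3, with adjusted p of 0.137, 0.261 and 0.129 and differences of 2.58, 2.64 and 2.94. Ms4a4c (44.8 to 207 CPM in NT, 144 to 612 in RT), Ms4a6c (126 to 461 and 277 to 691) and Ms4a6b (27.3 to 114 and 48.0 to 223) overlapped between groups and had adjusted p of 0.533, 0.454 and 0.454.

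The summed monocyte markers in the same cDC-like barcodes were 389 to 2588 CPM in NT, with a median of 928, and 1740 to 2252 CPM in RT, with a median of 1896. The summed macrophage markers were 120 to 383 CPM in NT and 68.3 to 187 CPM in RT. Too few barcodes were left for a fit without monocyte markers, and the part of these cells in the Ms4a6d result was not tested. Among cDC-like barcodes with at least 5000 UMIs, Ms4a6d differed by 2.93, Ms4a6c by 1.24 and Ms4a6b by 1.13, and all 3 were called (adjusted p = 0.00183, 0.0175 and 0.0921). MC38 held 30 cDC-like barcodes, too few to test.

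**Figure D4:**
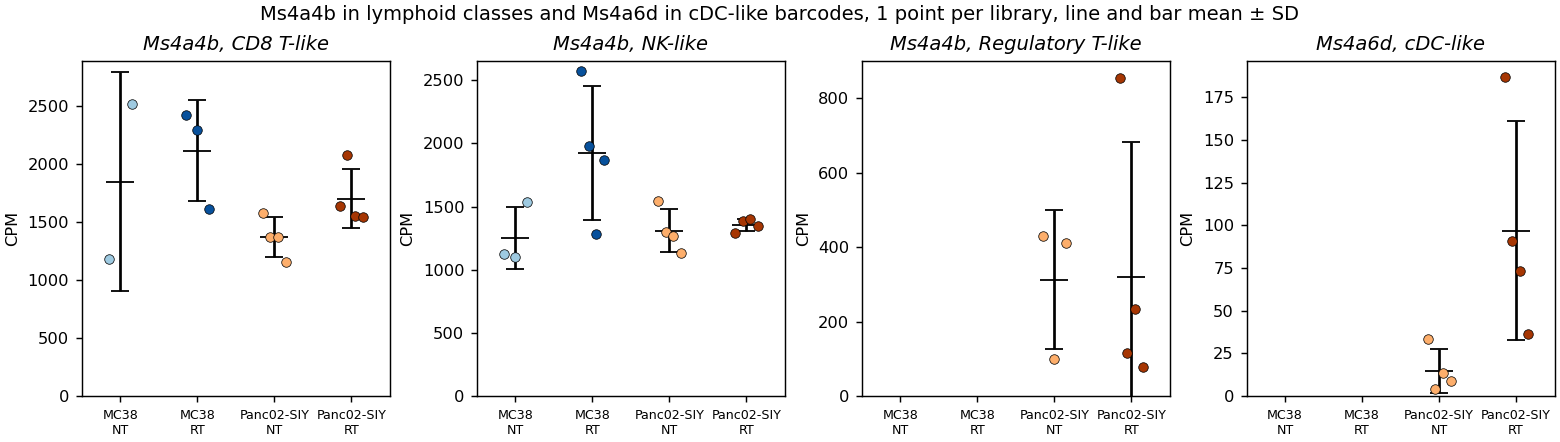
CPM of Ms4a4b in CD8 T-like, NK-like and regulatory T-like barcodes and of Ms4a6d in cDC-like barcodes, 1 point per library with the mean ± SD as a line and bar and axes starting at 0; groups without enough barcodes are empty. Ms4a6d in cDC-like barcodes is 36.3 to 187 CPM in Panc02-SIY RT against 4.08 to 33.4 CPM in NT, and the Ms4a4b groups overlap in each lymphoid class.

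The lymphoid members were not called after RT within any lymphoid class that could be tested. In MC38 only NK-like and all T barcodes could be, because single T classes and B-like barcodes were too few. Ms4a4b in CD8 T-like barcodes of Panc02-SIY was 1578, 1371, 1368 and 1157 CPM in NT and 1633, 2078, 1549 and 1546 CPM in RT, which overlap. The difference was 0.23 (SE 0.15, edgeR quasi-likelihood adjusted p = 0.522), and 0 of 7 members were called where 3.05% of all genes were. In NK-like barcodes Ms4a4b was 1124, 1098 and 1536 CPM in MC38 NT and 2574, 1977, 1281 and 1868 CPM in MC38 RT, a difference of 0.58 (SE 0.22, adjusted p = 0.513). In Panc02-SIY it was 1133 to 1543 CPM in NT and 1290 to 1401 CPM in RT. None of the 6 members tested in NK-like barcodes was called in either tumor, against 0.141% and 0.404% of genes, while 857 and 888 genes had an unadjusted p below 0.05. DESeq2 called Ms4a4b in MC38 (0.56, adjusted p = 0.0941).

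Across all T barcodes of MC38, 0 of 7 members were called, where 0.358% of genes were and 1142 had an unadjusted p below 0.05. In Panc02-SIY, 0 of 7 were called across all T barcodes (4.35% of genes), 0 of 6 in other T-like (5.63%), 0 of 6 in CD4 conventional T-like (0.406%), 0 of 3 in regulatory T-like (0.0811%), 0 of 6 in neutrophil-like (0.0132%) and 0 of 5 in B-like barcodes (0%), by edgeR at the same thresholds. Unadjusted p was below 0.05 for 1811, 1657, 644, 305, 468 and 328 genes. DESeq2 called 0 members in these classes and in CD8 T-like barcodes. Ms4a1 in B-like barcodes differed by 0.29 (SE 0.19, adjusted p = 0.894). In other T-like barcodes Ms4a4b was 1088 to 1187 CPM in NT and 1389 to 1526 CPM in RT, without overlap, a difference of 0.28 (SE 0.10, adjusted p = 0.136).

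Summed over all CD45+ barcodes, fewer cells of a type and less RNA per cell cannot be told apart. In MC38, Ms4a4b, Ms4a4c and Ms4a6d were higher in RT by 1.15, 0.70 and 0.68 (edgeR adjusted p = 0.0111, 0.0202 and 0.0525), 3 of 8 members against 5.57% of genes that were higher. Ms4a4b was 121, 116, 64.8 and 100 CPM in NT and 343, 141, 197 and 178 CPM in RT, without overlap. All T-like barcodes were 8.07% ± 1.48 of the barcodes in MC38 NT and 10.7% ± 5.18 in RT, and NK-like barcodes 5.14% ± 2.19 and 7.43% ± 1.49. In Panc02-SIY, Ms4a4a, Ms4a4c, Ms4a6c and Ms4a6d were higher by 1.21, 1.19, 0.82 and 0.88 (adjusted p = 0.0392, 0.000566, 0.0147 and 0.0108), 4 of 8 against 6.57%. Monocyte-like barcodes were 1.89% ± 1.45 of Panc02-SIY NT and 5.85% ± 0.852 of Panc02-SIY RT. The Ms4a6d call in MC38 ended without NT replicate 1, 2 or 4 or RT replicate 2 (adjusted p from 0.111 to 0.122) and with all deposited barcodes (0.226), and the Ms4a4a call in Panc02-SIY ended without NT replicate 4 or RT replicate 1 (0.119 and 0.108).

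The third question was how the tumors differed. In macrophage-like barcodes of untreated tumors all 7 members tested differed, against 44.1% of all genes: 6 were higher in MC38 and Ms4a4b was lower. Ms4a4a differed by 2.47, Ms4a4c by 2.29, Ms4a6b by 1.67, Ms4a6d by 1.56, Ms4a7 by 0.82 and Ms4a6c by 0.68 on the log2 scale (edgeR quasi-likelihood adjusted p = 0.00121, 1.79e-08, 5.12e-08, 1.02e-10, 0.00715 and 3.18e-05). For Ms4a4c the 4 MC38 NT libraries at 459 to 548 CPM were all above the 4 Panc02-SIY NT libraries at 77.9 to 170 CPM. For Ms4a7, with 650 to 995 against 304 to 604 CPM, the groups also did not overlap.

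Ms4a4b in macrophage-like barcodes was 16.8 to 21.0 CPM in MC38 NT and 28.7 to 75.8 CPM in Panc02-SIY NT, a difference of -1.51 (SE 0.40, edgeR adjusted p = 0.00791). The T cell markers went with it, at a median of 23.0 CPM in macrophage-like barcodes of MC38 NT and 228 CPM in those of Panc02-SIY NT. Depth also differed: macrophage-like barcodes had a median of 21683 UMIs in MC38 NT and 2238.5 UMIs in Panc02-SIY NT. With at most 1 marker of every other class, Ms4a4b differed by -0.70, Ms4a7 by 0.54 and Ms4a6c by 0.07 (adjusted p = 0.477, 0.261 and 0.907), while Ms4a4c, Ms4a6b and Ms4a6d remained higher in MC38 by 1.20, 1.67 and 1.01 (adjusted p = 0.00383, 0.000133 and 0.0127).

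In macrophage-like barcodes after RT, 6 of 7 members were higher in MC38, against 20.5% of genes: Ms4a4c by 2.33, Ms4a6d by 1.90, Ms4a4a by 1.77, Ms4a6b by 1.52, Ms4a6c by 0.80 and Ms4a7 by 0.55. The call for Ms4a7 (edgeR adjusted p = 0.0525) ended without MC38 RT replicate 2 or Panc02-SIY RT replicate 1 or 3, with adjusted p from 0.118 to 0.136, and with at least 5000 UMIs per barcode (0.72, adjusted p = 0.11). With at most 1 marker of every other class, Ms4a7 and Ms4a6c turned to -0.52 and -0.34 (adjusted p = 0.358 and 0.522). Ms4a6d and Ms4a6b were then 0.38 and 0.45 (adjusted p = 0.564 and 0.514), and only Ms4a4c kept its call among the 6 that could be fitted (1.39, adjusted p = 0.00343). With at most 1 monocyte marker, Ms4a6c differed by -0.43 (adjusted p = 0.0724), the opposite direction.

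Fewer members were called in monocyte-like barcodes, where fewer of all genes were called as well. In NT, 14.9% of all genes were called there in either direction, against 44.1% in macrophage-like barcodes. MC38 NT held 73 monocyte-like and 795 macrophage-like barcodes, so the numbers of calls do not compare the classes. In NT, 4 of 7 were called where 7.62% of genes were higher: Ms4a7 by 2.61, Ms4a6d by 1.86, Ms4a4c by 1.32 and Ms4a4b by 1.12, all higher in MC38 (edgeR adjusted p = 0.0888, 0.00491, 0.00239 and 0.015). In RT, 5 of 7 were called where 10.9% were higher: Ms4a7 by 2.49, Ms4a6d by 1.59, Ms4a4c by 1.52, Ms4a4b by 0.74 and Ms4a6b by 0.63. Ms4a6c, at 1191 to 1671 CPM in MC38 NT and 1124 to 1469 CPM in Panc02-SIY NT, overlapped and was not called (0.26, adjusted p = 0.369).

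The Ms4a7 level in monocyte-like barcodes was 20.1, 48.2 and 141 CPM in MC38 NT and 7.45 to 14.3 CPM in Panc02-SIY NT, far under the macrophage-like levels. Macrophage markers in these barcodes had a median of 1797 CPM in MC38 NT and 762 CPM in Panc02-SIY NT, and 2232 and 1075 CPM in RT, and their part in the difference was not tested. The Ms4a7 call in NT was lost in 11 of the alternatives tried, among them leaving out any 1 of MC38 NT replicates 3 and 4 or of the 4 Panc02-SIY NT libraries (adjusted p from 0.129 to 0.224), while its direction held. The Ms4a4b call in NT was lost without MC38 NT replicate 3 (0.95, adjusted p = 0.155). In RT it was lost without MC38 RT replicate 3 (0.59, adjusted p = 0.178) and with at least 5000 UMIs per barcode (0.47, adjusted p = 0.199).

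In T cells, Ms4a4c was higher in MC38 in NT and in RT, Ms4a6c and Ms4a6d were called in RT, and the T cell members were not called. Across all T barcodes Ms4a4c was 90.4 to 244 CPM in MC38 NT and 17.7 to 38.6 CPM in Panc02-SIY NT, a difference of 2.38 (SE 0.37, edgeR adjusted p = 0.0019), 1 of 7 members against 4.37% of genes that were higher. In RT Ms4a4c, Ms4a6c and Ms4a6d differed by 2.95, 1.47 and 2.22 (adjusted p = 0.000247, 0.0577 and 0.0323), 3 of 7 against 5.23%. Without MC38 RT replicate 3 the Ms4a6c and Ms4a6d calls ended (0.78 and 1.33, adjusted p = 0.434 and 0.296), while Ms4a4c was still called (2.50, adjusted p = 0.00362). The Ms4a6c call also ended without Panc02-SIY RT replicate 3 (adjusted p = 0.104), with the filter on barcodes (0.108) and without the filter on low counts (0.119). Ms4a4b and Ms4a6b differed by 0.10 and 0.03 (adjusted p = 0.839 and 0.977).

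Within CD8 T-like barcodes after RT, Ms4a4c was 365, 495 and 47.9 CPM in MC38 and 31.7, 24.0, 23.7 and 20.0 CPM in Panc02-SIY. The difference was 3.52 (SE 0.58, edgeR adjusted p = 0.0118), and 3 of 7 members were called where 3.51% of genes were higher. These MC38 libraries held only 11, 16 and 29 CD8 T-like barcodes in that order, so the lowest Ms4a4c value came from the library with most. Panc02-SIY RT libraries held 135 to 923. Ms4a6c (21.5, 256 and 69.6 CPM in MC38) and Ms4a6d (53.7, 315 and 56.6 CPM) were called with differences of 2.17 and 2.54, but without MC38 RT replicate 3, the highest value of each, these fell to 0.97 and 1.14 (adjusted p = 0.305 and 0.219). Monocyte markers in these barcodes had a median of 1943 CPM in MC38 RT and 764 CPM in Panc02-SIY RT. Trem2, a macrophage receptor, differed in the same barcodes by 7.45 on the log2 scale and in NK-like barcodes of NT and RT by 5.96 and 5.68. Trem2 was also higher in macrophage-like barcodes of untreated MC38 than of untreated Panc02-SIY tumors. The summed macrophage markers in the CD8 T-like barcodes overlapped, with 182 to 781 CPM (median 366) in MC38 RT and 88.5 to 317 CPM (median 211) in Panc02-SIY RT. The calls across all T barcodes, in NT and in RT, were kept with at most 1 detected monocyte marker per barcode. That setting did not limit macrophage markers, and the part of macrophage RNA was not tested. It could not be fitted for these CD8 T-like calls, and the part of myeloid RNA in their values was not tested.

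In NK-like barcodes 0 of 6 members were called in NT or RT, against 5.48% and 9.92% of genes, and 1797 and 2125 genes had an unadjusted p below 0.05 by edgeR. DESeq2 called Ms4a4c in NT and Ms4a4b, Ms4a4c and Ms4a7 in RT. Ms4a4b differed by -0.13 and 0.45 (SE 0.22 and 0.20, adjusted p = 0.801 and 0.182) and Ms4a6b by -0.61 and 0.04 (adjusted p = 0.276 and 0.957). Over all CD45+ barcodes all 8 members were called in both NT and RT, against 57.8% and 54.7% of genes. In NT the differences ran from 3.48 for Ms4a4c to -2.94 for Ms4a4b and -4.05 for Ms4a1. Macrophage-like barcodes were 58.2% ± 6.66 of MC38 NT and 18.2% ± 9.18 of Panc02-SIY NT, and all T-like barcodes 8.07% ± 1.48 and 44.5% ± 3.68.

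The difference in RT response between the tumors was called for 0 of 8 members over all CD45+ barcodes (0.145% of genes) and for 0 of 7, 0 of 6 and 0 of 7 in monocyte-like (0%), NK-like (0%) and all T barcodes (0.00852%) by edgeR. Unadjusted p was below 0.05 for 1493, 443, 650 and 656 genes. Over all CD45+ barcodes Ms4a4b had the smallest adjusted p by edgeR (1.26, SE 0.34, adjusted p = 0.188), and DESeq2 called it (1.25, adjusted p = 0.0305). It was the only member that DESeq2 called.

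Other genes with a bearing on the family were followed by lists chosen with earlier results known. Of 20 interferon-stimulated genes, 16 were higher and 0 lower in MC38 RT macrophage-like barcodes, where 4.63% of all genes were higher and 4.94% lower. Their median was 0.79 on the log2 scale, beside -0.0023 over all genes tested. In Panc02-SIY RT 8 were higher, where 1.81% of all genes were, with a median of 0.55 beside 0.0055. Examples were Mx1, Rsad2 and Ifit2 in MC38, with 1.39, 1.38 and 1.23, and Slfn5, Mx1 and Usp18 in Panc02-SIY, with 1.36, 1.18 and 1.14. In untreated macrophage-like barcodes 17 of the 20 were higher in MC38, where 20.8% of all genes were, and 1 was higher in Panc02-SIY, where 23.2% were. The median was 1.28 beside -0.0151 over all genes tested.

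Of 16 relatives and known partners of the family, 8 were tested in macrophage-like barcodes. After RT only Tmem176b, a distant relative of the Ms4a proteins, was called in MC38. It was lower by 1.24 (edgeR adjusted p = 0.0166), the opposite direction to Ms4a4c and Ms4a6d. That was 1 of 8, where 4.94% of all genes were lower and 9.57% changed in either direction. None was called in Panc02-SIY, where 3.23% of all genes changed. Between the untreated tumors, 1 was higher in MC38 macrophage-like barcodes and 3 were lower, 4 of 8 where 44.1% of all genes were called. Trem2 was higher by 4.85, and Ms4a4d, Tnfrsf18 (GITR) and Fcer1g, the common gamma chain of Fc receptors, were lower by 2.76, 1.69 and 0.39. T cell markers in these barcodes had a median of 23.0 CPM in MC38 NT and 228 CPM in Panc02-SIY NT. The part of T cell RNA in the Tnfrsf18 difference was not tested.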

How the data were processed

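Cells were captured with the 10x Genomics 3′ v3.0 kit. The submitters' notes name bcl2fastq 2.20.0, Cell Ranger 3.1.0 and the mm10 genome, and the authors deposited raw UMI counts per gene and barcode for each library. A depth-equalised aggregate of all libraries was not used. All values come from these counts, and CPM were computed here. The members and gene lists were chosen with earlier results of these data known.

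Barcodes found in several libraries of a tumor were assigned to the library with most UMIs. Each of 11 classes was set by 8 marker genes, of which at least 2 had to be detected, and ties took no class. No doublet caller was run, so barcodes with markers of several classes remain. Counts were summed per library and class, with at least 10 barcodes per library and 3 libraries per group, and tested with edgeR 4.0.16 (quasi-likelihood, TMM scaling) in R 4.3.3 over all genes that passed filterByExpr (count 3, total 15), with Benjamini-Hochberg adjustment. Dispersion was shared across the 4 groups where they were fitted together. A call needed an adjusted p under 0.1 together with a change of more than 1.3-fold. The SE given with edgeR differences is the absolute log2 fold change divided by the square root of the test's F statistic. Tests were run on simulated counts first. The order of class levels was tested by exact two-sided sign flips with a pseudocount of 10 CPM. Shares of barcodes with a UMI were taken after thinning to 1000 UMIs, leaving out 195 to 1415 shallower barcodes per group. The unthinned shares left out the same barcodes, while the medians of UMIs beside them included these. A fit of each class against the mean of the others gave unstable folds where a class had no UMIs, so folds come from a class against all other classed barcodes, which was added after the data were seen.

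Every member was named. Further genes were the 3 closest in class pattern (at least 50 CPM in a class, gate markers left out), relatives and partners that were called, and up to 4 called interferon-stimulated genes of largest fold change per comparison. Alternatives were DESeq2 1.42.0, RLE scaling, no filter on low counts, all deposited barcodes, stricter barcode filters, 3 gate markers, the replicate number as a block and leaving out each library. Limits on markers of other classes, on monocyte markers and on UMIs were added after the data were seen. Promoters came from RefSeq (GRCm38.p6), gene positions from GENCODE (GRCm38).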

Additional observations from a re-analysis of the deposited data

Results flagged for a closer look

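Among 77 sets of 4 libraries with a mean of at least 50 CPM, 8 held 1 library far from the other 3. Chance alone would be near 1 in 20 if libraries had equal, normal spread. Of these 8, 7 were among the 57 Panc02-SIY sets and 1 among the 20 MC38 sets, and 5 were replicate 1 of Panc02-SIY NT or RT. That replicate held the fewest barcodes of its group: 117 macrophage-like, 15 monocyte-like and 15 cDC-like in NT, and 143 macrophage-like in RT. Regulatory T-like barcodes of RT replicates 1 and 4 were 14 each, also the fewest. The flagged CD8 T-like (653) and NK-like (33) libraries did not hold the fewest. The part of barcode number was not tested.

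In macrophage-like barcodes, Ms4a6c was 491 CPM in Panc02-SIY NT replicate 1 against 648 to 676 CPM in the others, and Ms4a4b was 188 CPM in Panc02-SIY RT replicate 1 against 36.7 to 53.7 CPM. Ms4a6d in monocyte-like barcodes was 68.6 CPM in Panc02-SIY NT replicate 1 against 255 to 269 CPM. Ms4a6b in cDC-like barcodes was 114 CPM in Panc02-SIY NT replicate 1 against 27.3 to 40.8 CPM.

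Among lymphoid classes, Ms4a4b in CD8 T-like barcodes was 2078 CPM in Panc02-SIY RT replicate 2 against 1546 to 1633 CPM. Ms4a6b in regulatory T-like barcodes was 526 CPM in Panc02-SIY RT replicate 1 against 238 to 262 CPM, and Ms4a6c there was 143 CPM in RT replicate 4 against 15.4 to 29.6 CPM. Ms4a4c in NK-like barcodes was 114 CPM in MC38 RT replicate 4 against 44.4 to 53.6 CPM.

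Barcodes that took no class, 2781 or 13.4% of those kept, held 19537 of the 356766 UMIs of the 8 genes, 5.48%, and entered no comparison between classes.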

How the results depend on the processing

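Of 58 called differences between groups, 27 kept direction and call under every alternative that could be fitted, and 1439 of 1527 alternative values did. Of these 1439 values, 892 came from leaving out single libraries, which included libraries of groups outside the comparison. The share that held was lower in other settings: with at most 1 marker of every other class, 17 values held, 15 lost the call and 7 reversed. Only calls in macrophage-like and all CD45+ barcodes could be fitted in that setting. Calls kept in monocyte-like, CD8 T-like or all T barcodes therefore did not face it. The limit to at most 1 monocyte marker left monocyte-like barcodes as they were, so calls in that class could not change under it. DESeq2 and RLE scaling lost 0 of the 58, and leaving out single libraries lost 36 values and reversed 0. The stricter rule on shared barcodes also lost 0. That rule kept all 2632 MC38 barcodes and 18118 of the 18136 Panc02-SIY barcodes, so it could hardly change a call. The calls per comparison were 6 for MC38 RT against NT, 7 for Panc02-SIY RT against NT, 20 and 25 between tumors in NT and RT, and 0 for the difference in response. Without 1 library at a time they ranged from 4 to 7, 3 to 10, 18 to 22, 20 to 29 and 0 to 0, and Panc02-SIY fell to 3 without NT replicate 4 and to 4 without RT replicate 1. These fits allowed 1 library fewer per group than the main fits. Classes that the main fits did not test could therefore add calls to these ranges. Class levels gave 26 calls in MC38 (24 to 28) and 51 in Panc02-SIY (47 to 51), and the order of classes gave 17 pairs.

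With at most 1 marker of every other class, the calls were 1, 0, 9 and 7, and 1 for the difference in response, as many as with DESeq2. Reversed values were -0.34 for Ms4a6c and -0.47 for Ms4a6d in MC38 RT macrophage-like barcodes, -0.52 for Ms4a7 and -0.34 for Ms4a6c between RT tumors, and, over all CD45+ barcodes, -0.67 for Ms4a6d in MC38 RT and -0.29 and -0.42 for Ms4a6b between NT and RT tumors. With at most 1 monocyte marker, MC38 RT and Panc02-SIY RT kept 2 and 2 calls, and Ms4a6c and Ms4a6d reversed to -0.21 and -0.086 in MC38 RT and Ms4a6c to -0.43 between RT tumors. Both settings leave fewer and shallower barcodes, and the cause was not tested. These settings were chosen after the data were seen. MC38 class levels could not be fitted under the first, nor could the called differences in monocyte-like and all T barcodes or those of Ms4a4a in macrophage-like barcodes. The called differences in CD8 T-like barcodes and cDC-like RT against NT could be fitted under neither.

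The labels tie a replicate number to no animal, and not every pair of same-numbered libraries correlated above 0.1: the values were -0.0392 to 0.0808 in MC38 and 0.404, -0.159, 0.318 and 0.751 for Panc02-SIY replicates 1 to 4. They were therefore not treated as pairs. With the replicate block the calls were 7, 10, 20, 23 and 0. Gained in Panc02-SIY RT were Ms4a4c, Ms4a6b and Ms4a6c in cDC-like barcodes (1.45, 1.01 and 0.99, adjusted p = 0.0294, 0.0284 and 0.00761, edgeR). Lost were Ms4a6c and Ms4a6d in CD8 T-like barcodes (adjusted p = 0.163 and 0.174) and Ms4a6c across all T barcodes (0.16).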
